A study of Mus musculus with 18 samples.

Results

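Chromatin accessibility was compared between lung endothelial cells (ECs) of bleomycin-injured mice aged 18 months (Aged Bleo, n = 5) and of bleomycin-injured mice aged 2 months (Young Bleo, n = 4), which are 9 of the 18 samples of the series. The samples were chosen by their labels alone. All mice carried a Col1α1-GFP transgene, a reporter of collagen-producing fibroblasts, and were of the FVB strain. Mice of both groups received about 1 U/kg of bleomycin into the trachea, and their lungs were taken at day 30. ECs were sorted as CD31+ cells that lacked CD45, EpCAM and GFP, and accessible DNA was measured by ATAC-seq on about 50000 cells. The other 9 samples are from PBS-treated mice, 4 aged 18 months (Aged Sham) and 5 aged 2 months (Young Sham), and serve here as a second look at the same regions. The comparison asks how open chromatin differs between an old and a young lung endothelium at the same time after the same injury.

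Bleomycin injures the alveolar epithelium and the capillaries behind it and causes lung fibrosis, which resolves more readily in young animals. ATAC-seq reads out accessible DNA with the transposase Tn5, which inserts sequencing adapters where chromatin is not packed against it, so that promoters and enhancers in use appear as peaks of fragments. In ECs many such sites are bound by ETS factors such as ERG together with SOX, GATA, AP-1 and forkhead factors.

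The unit of comparison is a region, a stretch of the mm10 genome where the peaks of at least 2 of the 18 lists overlap, and 47338 regions were kept. The strength of a region in a sample is its within-list percentile, the rank of its peak by -log10 p among the peaks of that sample, where 100 is the strongest peak and 0 means no peak. Lists differed in length, so ranks and presence were taken from all peaks and also from the strongest 21050 peaks of each sample, the length of the shortest list, which are called equal lists below. A percentile of 0 in equal lists means no peak among those 21050, and a weaker peak may still be present with all peaks. Regions are named by the gene with the nearest transcription start site (TSS), which need not be the gene they act on.

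The 200 bases around the summit are printed for 9 regions, since they carry the differences described further down. They are given from mm10 (RefSeq sequence of GRCm38.p6) on the plus strand, and all lie outside annotated exons. Capitals mark matches to the 14 short motifs listed with the motif shares, on either strand. The regions near 2310081J21Rik, A530032D15Rik, Rhbdf2, Gm12974 and Foxf1 ranked higher in Aged Bleo than in Young Bleo.
2310081J21Rik region, chr13:50292757-50292956: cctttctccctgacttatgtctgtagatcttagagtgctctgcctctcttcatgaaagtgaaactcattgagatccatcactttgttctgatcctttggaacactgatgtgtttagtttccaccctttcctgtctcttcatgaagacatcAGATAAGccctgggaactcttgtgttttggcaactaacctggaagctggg
A530032D15Rik region, chr1:85114765-85114964: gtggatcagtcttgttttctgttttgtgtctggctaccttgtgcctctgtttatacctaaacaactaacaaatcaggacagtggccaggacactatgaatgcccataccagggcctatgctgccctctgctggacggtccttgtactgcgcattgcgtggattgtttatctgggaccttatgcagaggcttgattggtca
Rhbdf2 region, chr11:116621280-116621479: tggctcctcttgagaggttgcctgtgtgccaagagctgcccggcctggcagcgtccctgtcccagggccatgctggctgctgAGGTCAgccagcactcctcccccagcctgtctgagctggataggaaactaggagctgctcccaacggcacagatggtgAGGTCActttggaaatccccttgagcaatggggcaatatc
Gm12974 region, chr4:133814124-133814323: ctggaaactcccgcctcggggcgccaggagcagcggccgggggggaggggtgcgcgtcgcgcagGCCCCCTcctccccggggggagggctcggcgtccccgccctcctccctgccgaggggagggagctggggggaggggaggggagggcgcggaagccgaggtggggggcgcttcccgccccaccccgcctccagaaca
Foxf1 region, chr8:121084136-121084335: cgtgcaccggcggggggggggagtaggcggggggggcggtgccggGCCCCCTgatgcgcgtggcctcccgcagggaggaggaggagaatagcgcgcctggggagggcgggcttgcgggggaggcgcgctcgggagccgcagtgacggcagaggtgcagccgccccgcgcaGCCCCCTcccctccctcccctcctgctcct

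The regions near Ppp1r14bl and Tnfsf18 ranked lower in Aged Bleo. Those at Gabre and near Gm16555 missed the threshold in that comparison, and had their highest group mean in Young Bleo. Those near Tnfsf18 and Ppp1r14bl passed the test of whether the age difference differs between bleomycin and sham mice.
Ppp1r14bl region, chr1:23109312-23109511: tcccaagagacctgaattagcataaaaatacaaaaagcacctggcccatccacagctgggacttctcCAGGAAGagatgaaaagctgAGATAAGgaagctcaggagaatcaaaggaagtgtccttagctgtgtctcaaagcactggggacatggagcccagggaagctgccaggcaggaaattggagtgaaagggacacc
Tnfsf18 region, chr1:161507746-161507945: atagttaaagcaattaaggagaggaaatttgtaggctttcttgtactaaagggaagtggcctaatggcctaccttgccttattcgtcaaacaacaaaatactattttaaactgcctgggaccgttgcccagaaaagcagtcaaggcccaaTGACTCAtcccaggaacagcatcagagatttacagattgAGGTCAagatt
Gabre region, chrX:72274791-72274990: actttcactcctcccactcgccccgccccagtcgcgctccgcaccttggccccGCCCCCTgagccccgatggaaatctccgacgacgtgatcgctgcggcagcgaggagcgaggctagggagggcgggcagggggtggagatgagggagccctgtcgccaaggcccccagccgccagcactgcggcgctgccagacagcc
Gm16555 region, chr17:49952215-49952414: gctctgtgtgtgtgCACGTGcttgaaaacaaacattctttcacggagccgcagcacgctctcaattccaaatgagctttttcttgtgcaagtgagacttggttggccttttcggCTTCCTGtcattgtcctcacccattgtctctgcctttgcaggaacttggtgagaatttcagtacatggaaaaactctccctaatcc

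The GATA letters AGATAAG were in capitals in the 2310081J21Rik and Ppp1r14bl windows, and the AP-1 letters TGACTCA in the Tnfsf18 window. The ERG core was found in the Ppp1r14bl and Gm16555 windows, and the CTCF core in the GC-rich Gm12974, Foxf1 and Gabre windows. No motif of the 14 was found in the A530032D15Rik window.

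Aged Bleo lists were on average shorter, but they overlapped with the Young Bleo lists. The 5 Aged Bleo lists held 37595, 40883, 29049, 21050 and 26886 peaks, and the 4 Young Bleo lists held 34086, 39310, 39420 and 33980. The longest list of the 9, Aged Bleo 2, and the shortest, Aged Bleo 4, are thus both from aged mice. The mean was 31093 ± 8076 peaks (SD, n = 5) in Aged Bleo and 36699 ± 3079 (SD, n = 4) in Young Bleo, a difference smaller than the spread (two-sided exact permutation test, p = 0.246). Peaks covered 11.9 ± 2.91 Mb in Aged Bleo and 15.7 ± 1.19 Mb in Young Bleo (exact permutation p = 0.0556), and the smallest p that 5 against 4 samples can give is 0.00794. Without Young Bleo 1 the difference in covered length was -4.26 Mb (exact permutation p = 0.0357).

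Measures of depth also differed with age. The background coverage, which is the number of fragments expected at a position outside peaks as solved from the deposited values, was 1.21 ± 0.220 fragments in Aged Bleo and 1.65 ± 0.102 in Young Bleo (two-sided exact permutation test, p = 0.0238). Aged Bleo 1 reached 1.60, within the Young Bleo range of 1.498 to 1.73, and the other 4 aged samples had 1.06 to 1.14. The median peak held 26.4 ± 1.14 fragments at its summit in Aged Bleo and 29.5 ± 1.00 in Young Bleo (exact permutation p = 0.0238). The last peak kept in the equal lists held 7 to 28 fragments in Aged Bleo and 22 to 26 in Young Bleo. Peaks of like fragments can thus be ranked in some equal lists and be at 0 in others. The names of the lists carry a code that was read here as the sequencing lane, which the labels do not state. By this code all Aged Bleo samples are from lane 6, and Young Bleo samples from lanes 7 (replicates 1 to 3) and 8 (replicate 4). Age, lane and depth cannot be told apart in this comparison, and no lane holds samples of both groups.

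**Figure D1:**
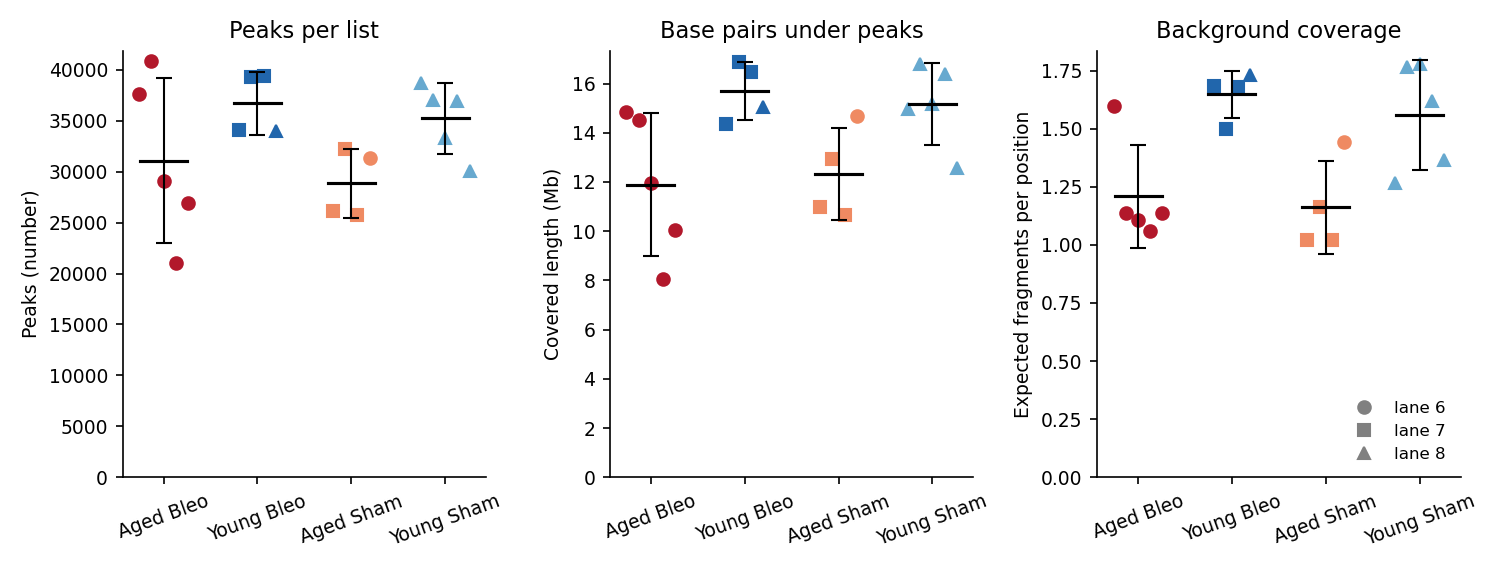
Peaks per list, covered length in Mb and background coverage in fragments per position for the 18 samples by group. Points are samples, their shape gives the code read as the lane, and bars are the mean ± SD. Aged Bleo spans 21050 to 40883 peaks and Young Bleo 33980 to 39420, and 4 of the 5 Aged Bleo samples lie below all Young Bleo samples in background coverage.

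With all peaks, regions that held a peak in most samples of only one group were nearly always regions of Young Bleo. At a two-sided Fisher's exact p of at most 0.05 without adjustment, 1157 regions (2.44% of 47338) held a peak in fewer Aged Bleo samples, and 58 (0.123%) in more. Of the former, 164 had a peak in all 4 Young Bleo and no Aged Bleo sample, 466 in all 4 and 1 Aged Bleo sample, and 527 in 3 and none. Only 9 regions had a peak in all 5 Aged Bleo and no Young Bleo sample. No region passed after Benjamini-Hochberg adjustment (smallest adjusted p of the exact tests 1.00), because 0.00794 is the smallest p the design allows.

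In equal lists the 2 directions were closer to each other, with 298 regions (0.63%) lower and 190 (0.401%) higher in Aged Bleo. Where peaks had to cover 50% of a region, equal lists gave 707 lower and 73 higher regions, and without 1 sample they gave 94 to 146 in all. The share of lower regions was therefore 95.2% with all peaks and 61.1% in equal lists. Few regions were found both ways: 5 of the lower regions were shared, which is 0.432% of the all-peaks set and 1.68% of the equal-lists set. For the higher regions 4 were shared, 6.90% and 2.11% of the sets, and none was called in opposite directions. A peak was found in all 9 samples at 18429 regions (38.9%) with all peaks and at 14900 (31.5%) in equal lists.

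**Figure D2:**
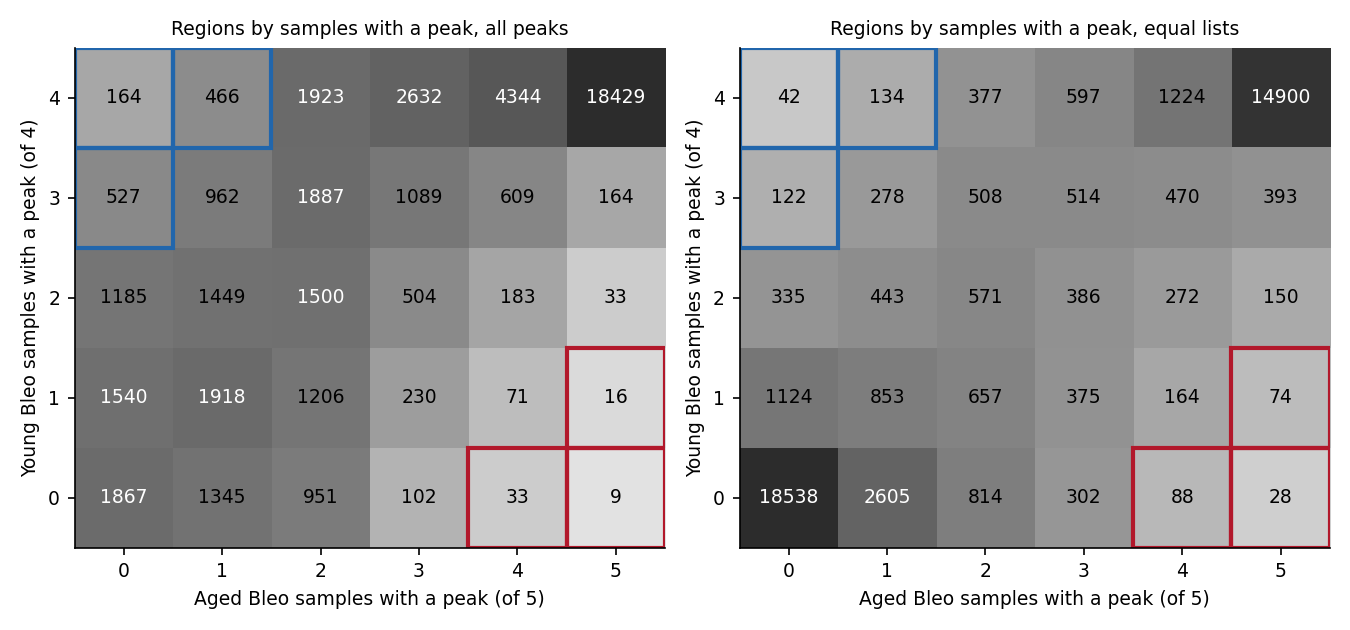
Number of regions for each combination of Aged Bleo samples (x axis, 0 to 5) and Young Bleo samples (y axis, 0 to 4) with a peak, with all peaks on the left and equal lists on the right; darker squares hold more regions on a log scale. Squares framed in blue pass the Fisher test as lower in Aged Bleo (1157 and 298 regions) and squares framed in red as higher (58 and 190 regions).

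A region 3.41 kb downstream of the TSS of Prr9 (chr3:92120273-92120795) was the only one with a peak in all 5 Aged Bleo and no Young Bleo sample both ways. In all peaks its percentile was 59.5, 57.2, 64.3, 51.9 and 59.98 in Aged Bleo 1 to 5 and 0 in each Young Bleo sample. The 4 Aged Sham samples also held this peak, at 62.5 to 78.0, and the 5 Young Sham samples did not. Among the 9 regions found in all Aged Bleo and no Young Bleo sample was an intronic region 0.578 kb from a TSS of Bdnf, a neurotrophin, at percentiles of 8.53 to 37.0. These regions were picked after their values were seen.

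Of the regions with a peak in all 4 Young Bleo and no Aged Bleo sample, a promoter region of Nav3 (chr10:110000677-110001104) was the third by mean percentile. Nav3 encodes a neuron navigator protein that binds microtubules. Its percentile in all peaks was 24.1, 50.1, 51.6 and 31.3 in Young Bleo 1 to 4 and 0 in the 5 Aged Bleo samples, and none of the 9 sham samples had a peak there. By the Fisher test with all peaks Nav3 also had the most lower regions of any gene, 4 of its 8. Young Bleo samples held 7 or 8 peaks at those 8 regions and Aged Bleo samples 2 to 6, the highest in Aged Bleo 1. At Cdh13, which encodes T-cadherin, 3 of 7 regions were lower, with 5 or 6 peaks per Young Bleo sample and 0 to 3 per Aged Bleo sample. At Fgfr2, a receptor of fibroblast growth factors, 3 of 13 regions were lower, with 7 to 9 and 3 to 7 peaks. In equal lists Young Bleo samples had 2 to 4 peaks at Nav3 and Aged Bleo samples 0 to 2, so these counts rest mainly on peaks below the strongest 21050.

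By rank, no region passed with all peaks and 11 regions passed in equal lists. With all peaks limma called 0 of 42586 regions at an adjusted p below 0.05, while 5182 had an unadjusted p below 0.05, of which 5038 were lower in Aged Bleo, and the median difference over all regions was -5.45 points. In equal lists the median difference was -0.0896 points, and limma called 5 regions higher (0.0199% of 25071) and 6 lower (0.0239%) in Aged Bleo, with 3160 at an unadjusted p below 0.05. The split between the directions was less even in other settings, with 47 of 56 calls lower where peaks had to cover 50% of a region, 29 of 36 by limma without a trend and 239 of 336 in a fit of all 4 groups. The calls depended on single samples: 1 of the 11 was called without Aged Bleo 4, Young Bleo 1, Young Bleo 3 or Young Bleo 4, none without Aged Bleo 5 and 3 without Aged Bleo 2, where 4 were called in all, while 11, 11 and 12 were called without Aged Bleo 1, Aged Bleo 3 and Young Bleo 2, of which 8, 6 and 7 were among the 11. Of the 9 fits that each left out 1 sample, the call held in 8 near 2310081J21Rik, in 4 near A530032D15Rik, in 3 at Zfp711 and Snapc2, in 2 at Slc25a13, Mlf1 and Ppp1r14bl, and in 1 at Rhbdf2, Foxf1, Gm12974 and Tnfsf18. None of the 11 met the stricter rule of a call by rank and by presence with and without equal lists. Of the 11, those near A530032D15Rik and at Zfp711 entered the test through 1 group alone.

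The largest difference was at an intergenic region 31.05 kb from the TSS of the noncoding gene 2310081J21Rik (chr13:50292602-50293125). Its percentile in equal lists was 62.6, 68.4, 71.2, 52.2 and 67.7 in Aged Bleo 1 to 5 and 0, 0, 0 and 9.59 in Young Bleo 1 to 4. Every aged sample was thus above every young one, by 62.0 ± 6.05 points (difference ± SE, limma adjusted p = 0.00821). Without Aged Bleo 5 its limma adjusted p was 0.0577. With all peaks the young samples also had a peak there, on 16 to 24 fragments against 23 to 89 in the aged samples, and its adjusted p was 0.231.

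A second region that was at or near 0 in Young Bleo in equal lists lies 5.02 kb upstream of A530032D15Rik on chromosome 1 (chr1:85114655-85115094). It had percentiles of 50.02, 41.5, 50.6, 47.2 and 45.4 in Aged Bleo 1 to 5 and 0 in all 4 Young Bleo samples, a difference of 46.9 ± 5.51 points (limma adjusted p = 0.0222). It entered the test in equal lists through Aged Bleo alone, so its p rests on a group without spread. With all peaks the 4 young samples held a peak there on 20 to 25 fragments, against 24 to 61 in the aged samples, and its adjusted p was 0.302. Aged Bleo 4 thus ranked at 47.2 in equal lists on 24 fragments, a number within the range of the young samples.

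Regions that were strong in both groups also ranked higher in aged mice. In an intron of Rhbdf2, whose product iRhom2 carries the protease ADAM17 to the cell surface, the percentile (chr11:116621129-116621695) was 73.1, 82.1, 83.5, 81.0 and 83.4 in Aged Bleo and 62.4, 62.4, 59.3 and 65.97 in Young Bleo, 18.1 ± 2.39 points higher (limma adjusted p = 0.0245). Aged Bleo 1 was the lowest of the aged samples and still above the young ones. At the promoter of Foxf1, a forkhead factor that lung capillaries need to form (chr8:121082959-121084638), the percentile was 86.4, 87.0, 83.7, 84.9 and 86.5 in Aged Bleo and 76.2, 79.4, 74.2 and 73.5 in Young Bleo. The difference of 9.87 ± 1.40 points (limma adjusted p = 0.0335) was one of rank, and the fragments at the summit overlapped, at 115 to 323 in Aged Bleo and 172 to 245 in Young Bleo. A region 2.61 kb from the TSS of Gm12974 (chr4:133813149-133814596) ranked 7.62 ± 1.03 points higher (limma adjusted p = 0.0245), with 88.8 to 90.5 in the aged and 80.3 to 84.4 in the young samples.

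Among the regions that ranked lower in Aged Bleo, the promoter of Zfp711, a zinc finger gene on the X chromosome (chrX:112600417-112601010), was at 0 in all 5 aged samples and at 50.8, 39.0, 41.2 and 53.9 in Young Bleo 1 to 4. The difference was -46.2 points. This region entered the test through Young Bleo alone, so its difference is likewise given as a description, although it counts among the 11. With all peaks 3 of the aged samples had a peak there on 11 or 12 fragments, against 49 to 67 fragments in the young samples. At a 5′ untranslated region of Slc25a13 (chr6:6216627-6217422), which encodes a mitochondrial carrier of aspartate and glutamate, the aged samples were at 0 apart from 9.15 in Aged Bleo 3, and the young samples at 43.7, 38.7, 42.5 and 46.1 (-40.9 ± 5.24 points, limma adjusted p = 0.0245). With all peaks 4 aged samples had a peak there on 12 to 20 fragments, against 49 to 62 in the young samples. The promoter of Mlf1 (chr3:67373850-67374380) kept a peak in all samples and ranked at 39.1 to 55.0 in Aged Bleo and 72.7 to 79.6 in Young Bleo (-26.8 ± 3.52 points, limma adjusted p = 0.0245). An exonic region of Snapc2, a subunit of the complex that activates small nuclear RNA genes (chr8:4252855-4253570), ranked at 74.0 to 82.0 and 89.6 to 92.9 (-12.9 ± 1.74 points, limma adjusted p = 0.0245).

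The remaining 2 called regions ranked highest in Young Bleo in equal lists. At a region 13.1 kb from the TSS of Tnfsf18 (chr1:161507478-161508073), a TNF family ligand that ECs can present to T cells, the percentile was 14.6, 4.45, 0, 12.8 and 0 in Aged Bleo 1 to 5 and 46.2, 59.1, 59.1 and 52.3 in Young Bleo 1 to 4. The difference was -47.8 ± 6.37 points (limma adjusted p = 0.0245), and fragments at the summit were 11 to 28 in the 4 aged samples with a peak and 47 to 86 in the young. With all peaks the 4 Aged Sham samples also held this peak on 11 to 28 fragments and the 5 Young Sham samples on 13 to 33. At a region 7.17 kb from the TSS of Ppp1r14bl (chr1:23109165-23109686) only Aged Bleo 1 held a peak in the equal lists, at 2.22, against 39.4, 42.2, 34.6 and 36.7 in Young Bleo (-37.8 ± 4.70 points, limma adjusted p = 0.0245). With all peaks Aged Bleo 1 and 2 held it, on 23 and 16 fragments, against 37 to 47 in the Young Bleo samples. The 5 Young Sham samples then held it on 18 to 29 fragments and Aged Sham 4 on 20.

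By the naming rule 13 further regions were followed, 7 higher and 6 lower, none of which passed (limma adjusted p = 0.0594 to 0.0768). In all 24 named regions the groups did not overlap, which follows largely from naming them by smallest p. Over all regions tested this was the case at 4.83%. The Dll4 promoter (chr2:119325483-119326212), which belongs to the Notch ligand of sprouting and arterial ECs, was at 83.0, 84.3, 82.0, 84.4 and 80.0 in Aged Bleo and 72.7, 71.4, 65.0 and 73.4 in Young Bleo, a difference of 12.1 ± 1.86 points (limma adjusted p = 0.0594). The Fbxl16 promoter was at 30.1 to 52.3 in Aged Bleo and 0 in Young Bleo, where with all peaks the 4 young samples held a peak on 14 to 23 fragments, against 21 to 48 in the aged samples. A region 22.4 kb from the TSS of Fpr2, a formyl peptide receptor, was at 60.7 to 80.4 and 34.4 to 52.7. Promoters of Cadm2, Svip, Nap1l3 and Ubb, a ubiquitin gene, differed by 13.7, 14.5, 21.9 and 7.65 points. On the lower side the promoter of Ghr, the growth hormone receptor (chr15:3582963-3583673), was at 68.1, 64.5, 70.7, 63.0 and 62.7 in Aged Bleo and 77.1, 79.5, 79.0 and 78.2 in Young Bleo (-12.7 ± 2.05 points, limma adjusted p = 0.0707). Regions near Gm34585, Rnf7, Gabre, 4933417E11Rik and Gm16555 differed by -51.1, -31.0, -37.9, -29.6 and -29.7 points.

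**Figure D3:**
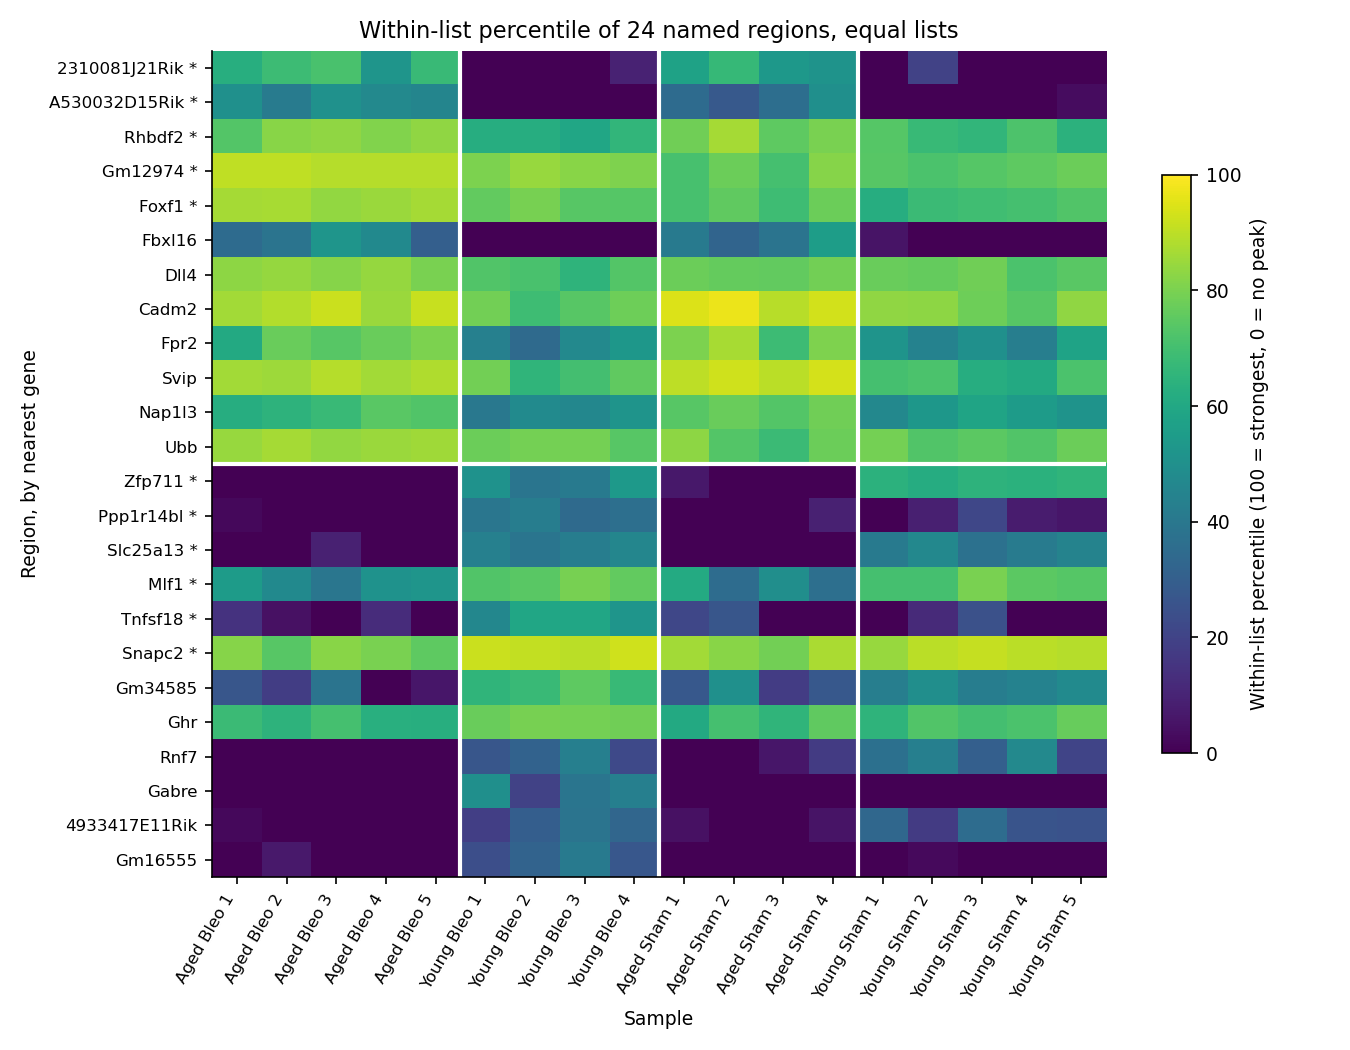
Within-list percentile in equal lists (colour, 100 is the strongest peak and 0 no peak) of the 24 named regions (rows, by nearest gene) in the 18 samples (columns, by group); the upper 12 rows ranked higher in Aged Bleo and the lower 12 lower, and * marks the 11 regions with a limma adjusted p below 0.05. Zfp711 and Slc25a13 are at or near 0 in aged mice of both treatments, and Gabre and Gm16555 are near 0 outside Young Bleo.

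Most named regions differed with age in sham mice too, in samples that share no mouse with the bleomycin comparison. In Aged Sham against Young Sham limma called 990 of 24581 regions (4.03%). Of the 11 regions called after bleomycin, 10 had the same sign in sham mice and 6 of those passed there. The 6 include Slc25a13, which entered the sham test through Young Sham alone, as all 4 Aged Sham samples were at 0 in equal lists. Of the 24 named regions 22 could be tested in sham mice, 21 had the same sign and 13 passed, while 57.4% of all regions tested both ways and 70.1% of those with an unadjusted p below 0.05 after bleomycin had the same sign. The differences in sham mice were 53.2 ± 6.03 points near 2310081J21Rik (limma adjusted p = 0.00260), 36.5 ± 4.84 near A530032D15Rik (0.00443) and 11.3 ± 2.55 in Rhbdf2 (0.0344). They were -62.4 ± 4.34 points at Zfp711 (limma adjusted p = 0.000192) and -28.4 ± 4.83 at Mlf1 (0.0132). At Slc25a13 the difference was -42.2 points, which is given as a description, and this region is also among the 13. In sham mice the lane and the age likewise cannot be told apart, since the aged samples are from lanes 6 and 7 and the young samples from lane 8, and their background coverage was 1.02 to 1.44 and 1.26 to 1.78 fragments. Lane 7 holds 3 Aged Sham and 3 Young Bleo samples, and those 3 Aged Sham samples lay above those 3 Young Bleo samples by 59.2, 33.0 and 18.7 points near 2310081J21Rik, A530032D15Rik and Rhbdf2 while their differences were -41.5, -41.6 and -27.0 points at Zfp711, Slc25a13 and Mlf1. Treatment differs between those samples as well as age.

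At the other 5 called regions the sham difference did not pass. The Foxf1 promoter differed by 4.63 ± 2.50 points in sham mice (limma adjusted p = 0.301) and within lane 7 Aged Sham against Young Bleo differed by -4.87 points. The region near Gm12974 differed by 0.796 ± 2.31 points (0.869) and by -9.25 points within lane 7, against the direction after bleomycin, as at Foxf1. Snapc2 differed by -5.21 ± 1.76 points (0.115) and by -8.54 points within lane 7. The Dll4 promoter differed by 1.53 ± 1.55 points in sham mice (0.586), where the interaction of age and treatment was 10.6 ± 2.41 points (limma adjusted p = 0.0803).

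At the regions that differed in presence in equal lists, the share of each sham sample lay between those of the bleomycin groups. Among the 298 regions lower in Aged Bleo in equal lists, 34.9% to 41.9% had a peak in each Young Sham sample and 22.8% to 39.9% in each Aged Sham sample. Among the 190 higher regions 53.7% to 60.5% had a peak in each Young Sham sample and 70.0% to 76.8% in each Aged Sham sample, where the sham groups did not overlap. Over all regions the share in equal lists was 43.0% to 44.2% in every sample. With all peaks the sham groups overlapped in the higher set, at 39.7% to 63.8% in Young Sham and 56.9% to 84.5% in Aged Sham, and did not in the lower set, at 33.4% to 59.4% and 11.1% to 27.5%. Aged Sham then overlapped with Aged Bleo, which was at 65.5% to 96.6% in the higher and 0.259% to 18.2% in the lower set. In equal lists Aged Sham 4, which carries the lane code 6 like the Aged Bleo samples, had the highest share of the lower regions and the lowest share of the higher regions among the Aged Sham samples. No peak in any of the 9 sham samples was found at 62 of the lower regions (20.8%) and at 2 of the higher regions (1.05%), against 40.9% of all regions. With all peaks these numbers were 212 of 1157 (18.3%) and 1 of 58 (1.72%), against 8.20% of all regions.

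**Figure D4:**
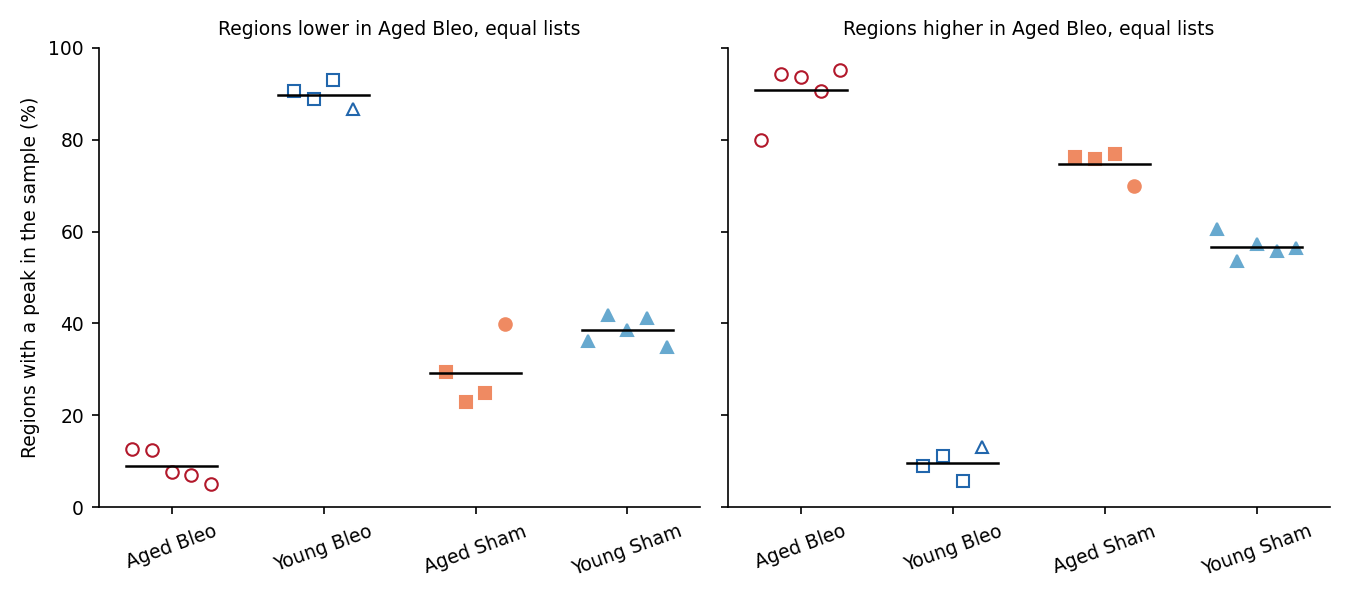
Share of the 298 regions that were lower (left) and the 190 that were higher (right) in Aged Bleo by presence in equal lists that held a peak in each sample. Points are samples, lines are group means and shapes give the code read as the lane (circle 6, square 7, triangle 8). Open symbols are the bleomycin samples that chose the regions, and filled symbols are sham samples, which lie between them.

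The age difference itself differed between bleomycin and sham mice at 61 regions (0.219% of 27834) by limma's interaction test, 36 below and 25 above 0. Of the 36, 20 had their highest group mean in Young Bleo and 16 in Aged Sham. Of the 25, 19 were highest in Young Sham and 6 in Aged Bleo. Among the called regions, those near Tnfsf18 (-52.4 ± 9.57 points, limma adjusted p = 0.0342) and Ppp1r14bl (-31.3 ± 5.48, 0.0282) passed. In sham mice the Tnfsf18 region was at 0 to 26.8 in Aged Sham and 0 to 24.9 in Young Sham, so its rank in Young Bleo was above all 14 other samples. The promoter of Gabre, which encodes the epsilon subunit of the GABA-A receptor (chrX:72274449-72275129), had no peak in the equal list of any sample but the 4 Young Bleo samples, at 49.6, 19.9, 38.8 and 43.1. It entered the test through Young Bleo alone, the other 14 samples being at 0, so its interaction of -37.9 points is given as a description. With all peaks the 5 Young Sham samples held it on 14 to 20 fragments and Aged Bleo 1 and 2 on 17 and 11, against 34 to 52 in Young Bleo. The region 130.5 kb from Gm16555 was at 24.1 to 41.3 in Young Bleo and at no more than 6.76 in any other sample in equal lists (interaction -29.2 points). With all peaks 2 Aged Bleo samples held it on 17 and 26 fragments and 2 Aged Sham samples on 9 and 16. In 4 Young Sham samples it was then held on 13 to 26 fragments, against 30 to 50 in Young Bleo.

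Among the 8 regions with the smallest interaction p in each direction, picked after their values were seen, an intron of Fhit and a region 10.7 kb from Magef1 had means in equal lists of 21.3 and 29.5 in Young Bleo and of 0 in Aged Bleo and Aged Sham. The Fhit region entered the test through Young Bleo alone, every other sample being at 0 in equal lists, so its values are given as a description. With all peaks 2 Aged Bleo samples and no sham sample held the Fhit peak. That near Magef1 was then held by 3 Aged Bleo, 4 Young Sham and 1 Aged Sham samples. In the other direction, a region 19.1 kb from Vcam1, the adhesion molecule on which leukocytes roll and arrest, had a mean of 37.7 in Young Sham, 0 in Young Bleo, 3.31 in Aged Sham and 4.59 in Aged Bleo (interaction 39.0 ± 6.53, limma adjusted p = 0.0212). With all peaks 4 Aged Bleo samples, 3 Young Bleo samples and all 4 from Aged Sham also held it. Regions in Hmcn1 and Rgs3 were also highest in Young Sham, with group means of 38.1 and 34.7 in Young Sham and of at most 3.19 in the other groups in equal lists. With all peaks 4 Aged Bleo, 4 Young Bleo and 3 Aged Sham samples held that in Hmcn1. The peak in Rgs3 was then held by 2 Aged Bleo, 3 Young Bleo and 4 Aged Sham samples. At the Ndrg1 promoter, where the interaction was below 0 as at Fhit, Young Sham was lower, at 74.6, than the other 3 groups at 84.5 to 86.2. Counts of this test fell to 18 without Aged Bleo 5, to 33 without Young Bleo 1 and to 29 without Young Bleo 3, and reached 100 without Aged Bleo 1.

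Per gene, the mean percentile over the regions assigned to it differed at 26 of 14062 genes (0.185%), 10 higher and 16 lower in Aged Bleo by limma in equal lists. The higher genes were A530032D15Rik, Prr9, 2310081J21Rik, Fbxl16, Atp8b3, Sp8, Gm12974, Gm16740, Gm15127 and Nap1l3, with differences of 7.62 to 40.7 points. In 6 of the 26 genes, A530032D15Rik, Prr9, Fbxl16, Gm15127, Zfp711 and Gabre, every sample of 1 group was at 0, so that these entered the test through the other group alone. Prr9, whose region above was picked for this pattern, had a mean of 24.4 points in Aged Bleo and 0 in Young Bleo, which is given without a test. The lower genes included Zfp711, Slc25a13, Mlf1, Tnfsf18, Gabre, Ppp1r14bl, Cadm4, an adhesion molecule, Myo5c, an unconventional myosin, and Selenop, the plasma carrier of selenium. The 4 regions of Selenop had a mean percentile of 15.8 in Aged Bleo and 28.5 in Young Bleo (-12.7 ± 1.70, limma adjusted p = 0.0326). Counts fell to 9 without Aged Bleo 5, 10 without Young Bleo 1, 14 without Young Bleo 3 and 8 without Young Bleo 4.

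None of the 13 lists of genes of vascular biology held a gene that passed at the gene level after adjustment, and the only called region in them was that at Foxf1. At an unadjusted p below 0.05, 7.23% of all genes tested were lower and 5.63% higher in Aged Bleo, and the median difference was -0.0619 points. These shares are the background for the counts that follow.

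Among angiogenic receptors, ligands and apelin genes, 5 of 23 were lower and 1 higher, with a median difference of -0.724 points. Tie1, the orphan receptor partner of the angiopoietin receptor, was at 31.3, 31.9, 30.2, 29.4 and 31.1 in Aged Bleo and 53.1, 44.7, 39.5 and 38.0 in Young Bleo (mean percentile of 3 regions, -13.1 ± 2.87, limma adjusted p = 0.118). The groups did not overlap, and the difference lay at a region 10.6 kb from its TSS (chr4:118500118-118500766), which was at 0 to 2.33 in Aged Bleo and 23.5 to 47.0 in Young Bleo. That region differed by -0.573 points in sham mice, and its interaction of age and treatment was -33.0 ± 5.61 points (limma adjusted p = 0.0228). With all peaks 3 Aged Bleo, 3 Aged Sham and all 5 Young Sham samples also held a peak there. Aplnr, the apelin receptor of general capillary ECs, was at 8.44 to 13.9 in Aged Bleo and 16.3 to 29.3 in Young Bleo over 7 regions (-13.3 ± 2.71, limma adjusted p = 0.104). Fgfr3 was the higher gene (8.71 ± 2.78, 0.256).

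Markers of both capillary cell types were followed. Of 16 aerocyte markers, genes of the large capillary cells that line the gas exchange surface, 4 were higher and 1 lower, and the median difference was 2.77 points. Chst1, a sulfotransferase, was at 19.997 to 26.05 in Aged Bleo and 11.4 to 14.6 in Young Bleo over 8 regions (8.82 ± 1.42, limma adjusted p = 0.0615). Tbx2 differed by 11.8 ± 3.96 points (0.275) with overlapping groups, and Ednrb, the endothelin receptor B, by -6.09 ± 2.02 points (0.270). Of 18 general capillary markers 2 were higher and 2 lower, with a median of -0.789 points, the higher being Hilpda (9.25 ± 2.50, 0.177) and Sema3c (2.39 ± 0.935, 0.334) and the lower Aplnr and Cxcl12 (-3.77 ± 1.61, 0.375). Of 18 markers of large vessels 1 was higher, Dll4, and 1 lower, Dkk2.

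In the list of Notch, BMP and TGF-beta genes 4 of 35 were higher and 3 lower, with a median of 1.17 points. Dll4 (5.43 ± 1.69, limma adjusted p = 0.248) and Acvrl1, the ALK1 receptor of capillary ECs (5.10 ± 1.87, 0.313), were among the higher. Bmp2, a ligand, was among the lower, and its promoter was at 29.3, 15.7, 0, 0 and 0 in Aged Bleo 1 to 5 and 45.1, 48.4, 48.1 and 35.9 in Young Bleo 1 to 4.

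Of 25 basement membrane and matrix genes 4 were lower and 1 higher. The Fn1 promoter, which drives fibronectin, was at 0, 0, 19.8, 18.7 and 0 in Aged Bleo 1 to 5 and 27.3, 41.1, 37.8 and 33.5 in Young Bleo 1 to 4, and the gene differed by -13.6 ± 2.78 points (limma adjusted p = 0.104). This promoter differed by -26.1 points in sham mice, too. Lama4, Nid1 and Nid2, which encode a laminin chain and the nidogens that link laminin to collagen, were the other lower genes at -4.83, -3.01 and -3.34 points. Of 21 genes of the cytoskeleton and cell migration 4 were lower and none higher: Cdh13 (-7.73 ± 1.80, 0.132), Evl (-9.70 ± 3.00, 0.248), Filip1 and Dock9.

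Among 33 endothelial transcription factors, 2 were higher and 3 lower, close to the shares over all genes. Gata2 was at 36.1, 39.97, 38.3, 39.0 and 43.2 in Aged Bleo and 32.5, 30.4, 30.6 and 32.3 in Young Bleo over 8 regions (7.87 ± 1.54, limma adjusted p = 0.0961), while Mef2c and Pparg differed by -4.24 and -5.66 points. Jund, a subunit of AP-1, was the higher of 21 immediate early genes (2.35 ± 0.488, 0.104) and Nr4a3 the lower. Cdkn1a, the p21 cell cycle inhibitor, was at 71.3 to 83.4 in Aged Bleo and 51.3 to 64.2 in Young Bleo over 2 regions (13.99 ± 3.45, 0.142), the higher gene of 27 in the senescence list, of which 2 were lower. Of 26 leukocyte adhesion and NF-kB genes 2 were higher, Icam1 (14.7 ± 5.62, 0.325) and Nfkb2 (5.88 ± 1.94, 0.269), and none lower. The 1 Nfkb2 region followed singly differed by 4.95 points in equal lists and by -0.352 points with all peaks. Young Bleo 4, with an Icam1 mean of 25.8, overlapped with the aged range of 11.0 to 28.0. Of 21 interferon genes 1 was higher, Irf8, and none lower.

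Of the 21 genes tested that the study names beside its ATAC-seq data, 6 were lower and 1 higher, and 11 of their 183 regions held a peak in fewer Aged Bleo samples with all peaks, which is 6.01% against 2.44% of all regions. In equal lists 3 of these regions were lower (1.64% against 0.63%) and 1 higher (0.546% against 0.401%). These genes were chosen on these samples and are no independent evidence of a direction.

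**Figure D5:**
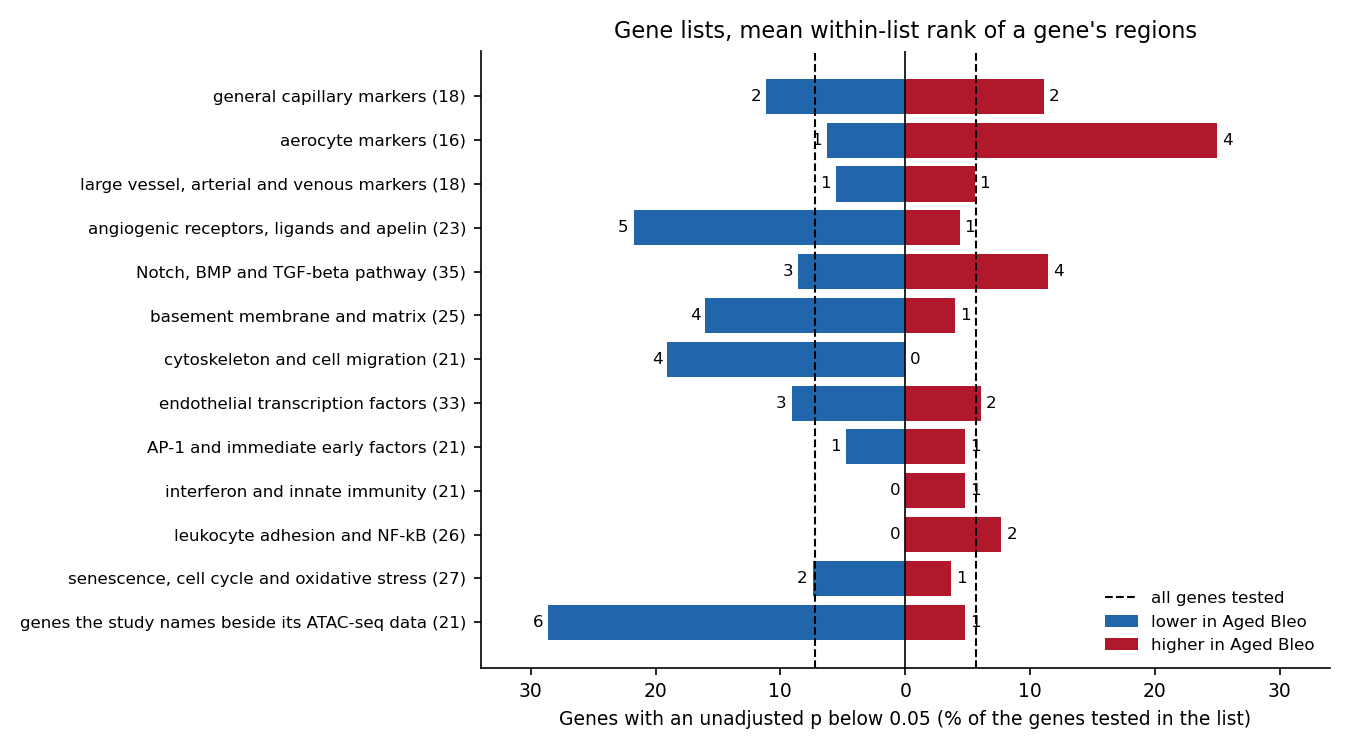
Share of the genes tested in each of 13 lists (number of genes in parentheses) with an unadjusted limma p below 0.05 in equal lists, lower in Aged Bleo to the left and higher to the right, with the number of genes at the bar ends; dashed lines are the shares over all genes, 7.23% and 5.63%. Aerocyte markers have the largest share of higher genes, 4 of 16, and no gene of the 13 lists passed after adjustment.

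Regions that differed in presence were less often promoters than all regions. Of the 298 lower and 190 higher regions in equal lists, 9.40% and 13.2% were promoters, defined as the 1000 bp ahead of a TSS with its next 100 bp, against 21.3% of all 47338 regions and 34.5% of the 25071 tested by rank. Their median distance to the nearest TSS was 25.8 and 20.1 kb against 12.6 and 4.29 kb. The backgrounds include the 14900 regions with a peak in all 9 samples in equal lists, which cannot differ in presence. No comparison with regions of like strength was made, so these shares are descriptions. By rank the order was another one: among the 1446 regions that ranked higher at an unadjusted p below 0.05, 46.1% were promoters, with a median GC content of 62.5%, and among the 1714 lower ones 36.1%, with 55.5%.

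Motif letters within 200 bp around the summit were counted on both strands. The ERG core was searched with the letters CAGGAAG and the more general ETS core with CCGGAAG, and both share GGAA with the TEAD and STAT motifs. AP-1 was searched with TGANTCA, the SOX family with AACAATG and the GATA family with AGATAAG. Forkhead factors were searched with TGTTTAC, the KLF family with CCACACC, the TEAD family with GGAATG and the RUNX family with TGTGGTT. STAT factors were searched with TTCCNGGAA, the core of the CTCF motif with AGGGGGC, E-boxes with CACGTG, nuclear receptors with AGGTCA and the CEBP family with TTGCGCAA. Shares differed between the ways of choosing regions. The SOX letters were in 16.8% of the regions lower in presence in equal lists, 5.26% of the higher ones and 5.56% of all tested, and in 9.74% of the regions lower and 2.84% of those higher by rank. The GATA letters were in 4.36% of the lower, 10% of the higher and 2.92% of all tested regions, and the AP-1 letters in 6.38%, 16.3% and 7.86%. The ERG core was in 23.5%, 29.5% and 18.7%, and in 18.7% of the regions lower and 17.2% of those higher by rank. With all peaks the 1157 lower and 58 higher regions held the SOX letters in 6.74% and 0%, the GATA letters in 3.03% and 10.3%, the AP-1 letters in 5.27% and 12.1% and the ERG core in 15.9% and 22.4%. Over all 47338 regions the SOX, GATA, AP-1, ERG and CTCF letters were in 6.05%, 3.34%, 8.63%, 19.96% and 9.73%. The median GC content was 49.5% in the lower and 52.5% in the higher regions in equal lists and 57% in those tested. These shares are descriptions without a test, and the part of GC content in them was not tested.

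The sorted cells carried endothelial promoters. Of 12 pan-endothelial markers, 8 to 10 had a promoter peak in each Aged Bleo and 9 or 10 in each Young Bleo sample, with summed percentiles of 407.6 to 748.1 and 614.6 to 668.5 in all peaks, and Tek and Emcn had no promoter region in any sample. No promoter of 12 leukocyte markers, Ptprc among them, had a region, and the 4 regions assigned to Laptm5, a leukocyte gene, had a mean percentile 6.50 ± 1.42 points higher in Aged Bleo (limma adjusted p = 0.118). Of 12 epithelial markers the promoter of Foxj1 alone had a peak, at 34.4 to 71.3 in Aged Bleo and 64.6 to 69.3 in Young Bleo, and Epcam and Sftpc had none. Of 12 markers of fibroblasts, pericytes and smooth muscle 2 had a promoter peak in every sample of both groups, with summed percentiles of 96.4 to 132.6 in Aged Bleo and 124.4 to 139.1 in Young Bleo, and Col1a1 and Pdgfrb had none. Of 7 lymphatic markers 0 to 3 had a promoter peak in Aged Bleo and 2 or 3 in Young Bleo, with summed percentiles of 0 to 41.8 and 16.1 to 64.0, against 0 or 1 in both sham groups, with 0 to 19.8 in Aged Sham and 0 to 7.41 in Young Sham. Prox1 had none. The part of such cells in the results above was not tested. Promoters of the Y-linked genes Ddx3y, Eif2s3y and Uty had a peak in all 18 samples and no region was found at the Xist promoter, although the study's methods give mice of both sexes. The promoter of Kdm5d, also Y-linked, had a peak in only some samples of Aged Bleo, Young Bleo and Young Sham and in no Aged Sham sample.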

How the data were processed

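Omni-ATAC-seq was performed on sorted lung ECs, with 1 library per sample. The authors aligned the reads to mm10 with BWA, marked duplicates with Picard and called peaks with MACS2 in each sample at an FDR of 1%. The deposited peak lists hold, per the file format of MACS2, the fold enrichment at the summit as a ratio over the local background, its -log10 p, its -log10 q and an integer score. The authors' peak lists carry no read counts, so the depth is known only through the fragments at each summit and the background coverage, which were solved from fold enrichment and -log10 p (tolerance 0.005, up to a -log10 p of 250). A region outside a list had no called peak, which does not show closed chromatin.

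Peaks on chromosomes 1 to 19, X and Y that shared 1 bp or more, from any of the 18 samples, were joined into 54619 regions, of which 47338 with a peak in at least 2 lists were kept (median width 440 bp). The 19 mitochondrial peaks of 5 lists were left out. Regions were annotated with 45755 RefSeq transcripts of GRCm38.p6. Presence was compared with two-sided Fisher's exact tests, per-list values with two-sided exact permutation tests, and within-list percentiles of -log10 p with limma 3.58.1 (R 4.3.3, eBayes with a trend, Benjamini-Hochberg adjustment below 0.05) at regions with a peak in at least 2 of the samples compared. The interaction and the sham contrast were fitted likewise. Other steps used Python 3.11.15, numpy 2.4.6, pandas 2.3.3, scipy 1.17.1 and samtools 1.23.1, and the limma step was tested on simulated data.

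Regions were to be named where they passed by rank and by presence with and without equal lists, 12 per direction. As 0 did, the 12 with the smallest limma p in each direction were named. For gene lists, up to 4 members with the smallest gene-level p were named, and for loci the 6 genes per direction with most regions that differed. Not all regions that passed the interaction test are reported here. The members, lists and tests were chosen with earlier results of these data known. The labels give separate samples, and p-values measure the spread between them. Alternatives were thresholds on -log10 q and fold enrichment, autosomes only, regions of 3 or more lists, peaks covering 50% of a region, 10000 peaks per list, ranks by fold enrichment, no trend, a fit of all 4 groups, a replicate block, and leaving out each sample.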

Additional observations from a re-analysis of the deposited data

Results flagged for a closer look

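In 32 groups of 4 or 5 samples, 6 held a sample far from the others by Dixon's test, which chance alone meets in about 1 in 20 groups of untied values. In 4 of the 6 the other samples were tied, so that any sample off the tie is picked and that rate does not apply. Background coverage was 1.60 fragments in Aged Bleo 1 and 1.06 to 1.14 in the other Aged Bleo samples. The median number of fragments at a summit was 28 in Young Bleo 2 and 30 in the other Young Bleo samples. The percentile of the region near 2310081J21Rik was 9.59 in Young Bleo 4 and 0 in the other Young Bleo samples. In Rhbdf2 it was 73.1 in Aged Bleo 1 and 81.0 to 83.5 in the other aged samples. Near Ppp1r14bl it was 2.22 in Aged Bleo 1, and at Slc25a13 9.15 in Aged Bleo 3, with 0 in the other aged samples.

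The age difference after bleomycin differed from that in sham mice, by limma's interaction test, at 61 regions. Of the named regions these were Tnfsf18 (-52.4 points), Ppp1r14bl (-31.3) and Gm16555 (-29.2). The value at Gabre was -37.9, a description, since the region entered the test through Young Bleo alone and the other 14 samples were at 0. Treatment and lane are linked in this test, as Aged Bleo is from lane 6 and Young Sham from lane 8.

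Outside the regions compared, Young Bleo 1 held 4 mitochondrial peaks.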

How the results depend on the processing

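The count of peaks per list kept its direction and stayed short of the threshold in every setting run, between -8054 and -3096 peaks when 1 sample was left out. The covered length ranged from -4.55 to -2.85 Mb in those fits, and passed only without Young Bleo 1 (-4.26 Mb, exact permutation p = 0.0357). The presence counts fell to 196 to 406 regions with all peaks and to 94 to 146 in equal lists without 1 sample, where fewer patterns of presence can reach the threshold. They rose to 2695 and 780 when peaks had to cover 50% of a region, with 98.3% and 90.6% of regions lower, and equal lists of 10000 peaks gave 220, with 51.8% lower.

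By rank with all peaks, where 0 regions were called, peaks covering 50% of a region gave 70, limma without a trend 59 and the fit of all 4 groups 832, of which 820 were lower, while leaving out 1 sample gave 0 each time. In equal lists, where 11 were called, these settings gave 56 (47 lower), 36 (29 lower) and 336 (239 lower), which include 11, 7 and 11 of the 11 regions. Leaving out 1 sample gave 0 to 12. Ranks by fold enrichment gave 15 regions, of which 4 were among the 11. Per gene, the counts were 61 with 50% coverage, 188 in the fit of all 4 groups and 8 to 35 without 1 sample. The interaction count was 26 with ranks by fold enrichment and 18 to 100 without 1 sample. The cause of these changes was not tested. None of the 24 named regions changed direction in the settings in which it was tested, although only 15 of them could be tested in lists of 10000 peaks. Directions of single genes outside these regions were not followed through every setting, and 1 region of Nfkb2 turned from 4.95 points in equal lists to -0.352 with all peaks.

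With the replicate number as a block 0 regions passed by rank in equal lists or with all peaks and 0 genes passed, against 11, 0 and 26 without it, and peaks per list differed by -4555 (exact permutation p = 0.5). The numbers were not taken to pair the samples, since the labels tie no number to a shared litter or day and not every pair correlated above 0.1: same-numbered samples correlated at 0.164, 0.317, 0.00842 and 0.355, and not every sample correlated best with its own number. Over the 24 named regions and the fits without 1 sample, a region kept its side of the threshold 141 times, lost its call 71 times and gained one 4 times.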
